A study of Homo sapiens with 16 samples.

Results

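The untreated state of immortalized adipose-derived mesenchymal stromal cells was described from the 4 libraries that had received neither mitomycin C nor GDF11 (MmC-/GDF11-, replicates 1 to 4), of 16 poly(A) RNA-seq libraries in all. The cells were of the ASC52telo line, human adipose MSCs immortalized with telomerase, and all 4 libraries therefore come from 1 established line. In the remaining 12 libraries the same line received the DNA crosslinker mitomycin C (MmC), the cytokine GDF11, or both. The untreated cultures were kept in α-MEM with 10% FBS and were collected on day 10. The libraries are described by expression level and by the spread between replicates, and no treatment comparison is made. The 4 cultures are called biological replicates by the study, and the sources used here do not say how they were separated, so the SDs below measure the spread between these libraries, part of which may be technical.

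Mesenchymal stromal cells are the adherent fibroblast-like cells of connective tissue stroma. They are recognized by a set of surface proteins (CD73, CD90, CD105 and CD44) together with the lack of blood cell proteins, and they can be driven toward fat, bone and cartilage. They secrete and remodel collagen-rich matrix, release growth factors and chemokines, and carry a contractile actin cytoskeleton. Introduced telomerase, the enzyme that extends chromosome ends, lets such cells divide past the limit set by telomere shortening.

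The most abundant nuclear transcripts are shown first by the sequence in front of their start sites. Of the 20 nuclear genes with the highest mean level, 14 had an entry in the RefSeq promoter table of GRCh38.p14. In 4 of these 14 the letters TATAA lay 16 to 40 bases before the start on the strand of the gene, which holds for 4.22% of the 27305 promoters in the table. The letters are capitalized in the 60 bases before the start of each of the 4 genes, printed 5′ to 3′ on the strand of the gene.
TMSB10 (chr2:84905596-84905655, plus strand): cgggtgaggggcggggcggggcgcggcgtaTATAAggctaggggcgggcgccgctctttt
S100A6 (chr1:153535992-153536051, minus strand): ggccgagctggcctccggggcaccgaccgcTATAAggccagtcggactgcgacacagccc
EEF1A1 (chr6:73521033-73521092, minus strand): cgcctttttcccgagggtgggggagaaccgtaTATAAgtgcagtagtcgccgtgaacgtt
EEF2 (chr19:3985464-3985523, minus strand): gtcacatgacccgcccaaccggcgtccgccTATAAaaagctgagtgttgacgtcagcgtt
Over the 250 bases before the start, on both strands, GGGCGG was found in 12 of the 14 promoters (42.3% of all promoters), TATAA in 5 (19.6%) and CCAAT in 4 (33.0%). The median GC content of these 250 bases was 65.6% in the 14 promoters and 58% over all. A match describes the sequence and says nothing about the binding of a factor.

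The 4 libraries held 74041671 to 99649535 counted fragments or reads, with at least 1 count for 25975 to 26992 genes. Levels are given in TPM (counts divided by the merged exon length of the gene and scaled to the same sum in each library), as mean ± SD with n = 4. At this depth 3 counts on a gene of 2000 exonic bases correspond to 0.0543 to 0.077 TPM, a limit that covers counting error only. A gene was called detected when it reached 1 TPM in each of the 4 libraries, which held for 13255 of 60463 genes (21.9%) and for 11076 of 19942 protein-coding genes (55.5%). The detected counts of the gene lists below are to be read beside this 55.5%. The median level of the detected protein-coding genes was 21.4 TPM. Genes whose exonic 31-base words lie for the most part on alternate contigs of hg38 as well can lose reads to those contigs, and the share of such words is given beside each of these genes. Its part in the low values was not tested. With the length of the longest transcript in place of merged exons, 16 of the 258 genes named here moved by over 1.5-fold, all upward, among them ITGB1 (934 in place of 500.5 TPM) and PPARG (15.9 in place of 8.36 TPM). The others were PCOLCE (1774 TPM), CD151 (895 TPM), COL4A2 (165 TPM), PLIN2 (149 TPM), ITGA7 (118 TPM), FGFR1 (100.3 TPM), COL4A1 (97.3 TPM), TFG (68.1 TPM), TMEM243 (40.7 TPM), POT1 (16.1 TPM), CDKN2A (2.40 TPM), PTPRC (0.145 TPM), DDR1 (0.00705 TPM) and FGFR2 (0.00133 TPM).

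The highest mean levels were those of TMSB10 and of mitochondrially encoded transcripts. TMSB10, which encodes thymosin beta-10, a small actin-binding protein, had the highest mean level (22927 ± 4625 TPM; chr2:84905656-84906671, plus strand). In replicates 1 to 4 it stood at 19086, 29317, 23288 and 20017 TPM, highest in replicate 2. The next positions were taken by the mitochondrial respiratory chain genes MT-CO2 (17615 ± 859 TPM) and MT-CO1 (16535 ± 2619 TPM), by the mitochondrial ribosomal RNA MT-RNR2 (14383 ± 2402 TPM) and by MT-CO3 (11937 ± 973 TPM). GAPDH, a glycolytic enzyme, followed with 10581 ± 2180.5 TPM, and LGALS1, a galactose-binding lectin, with 10278 ± 1649 TPM. VIM, the intermediate filament protein vimentin of mesenchymal cells, had 8923, 8973, 8202 and 9498 TPM in replicates 1 to 4. These VIM values differed little from one replicate to another beside the spread of TMSB10. The ferritin subunits FTL (8465 ± 1148 TPM) and FTH1 (6124 ± 973 TPM), which store iron, the calcium-binding S100A6 (7489 ± 1213 TPM), the cytoplasmic actins ACTB (5372 ± 470.4 TPM) and ACTG1 (4885 ± 349 TPM), and the elongation factor EEF1A1 (4457 ± 546 TPM) were also among the 20 highest, together with MT-ATP6, MT-ND4, MT-ATP8, MT-ND3, MT-CYB and MT-ND1.

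**Figure D1:**
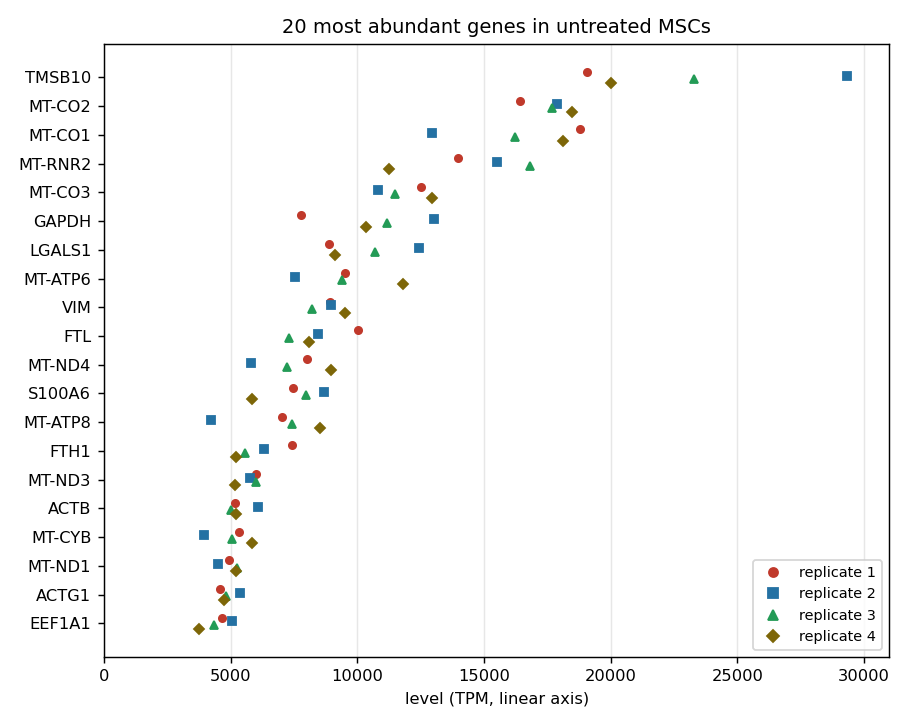
The 20 genes with the highest mean level in the 4 untreated libraries. The horizontal axis gives the level in TPM from 0, genes are ordered by mean level and each point is 1 replicate. TMSB10 leads with 19086 to 29317 TPM, and mitochondrially encoded genes take 10 of the 20 places.

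A small number of genes held a large part of the signal. The 10 genes with the highest mean level held 13.1 ± 0.462% of all TPM, the first 100 held 35.5 ± 1.01% and the first 1000 held 66.9 ± 1.54%. The first 50% of mean TPM was reached with 311 genes. Protein-coding genes outside mitochondrial DNA held 83.4 ± 0.742% of TPM, and the 37 mitochondrially encoded genes held 11.6 ± 0.916%. As a share of counts, without scaling by length, the mitochondrial genes held 2.81 to 3.11% in the 4 libraries. Long non-coding RNA genes were detected in 1134 of 16780 cases and held 0.865 ± 0.043% of TPM. Processed pseudogenes, copies of messenger RNAs inserted in the genome, held 3.00 ± 0.232%, and reads of such copies and of their parent genes can be exchanged.

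The cytosolic ribosomal proteins, which form the translation machinery outside mitochondria, were detected in 81 of 86 cases and summed to 72696 ± 8434 TPM. Replicates 1 to 4 gave 70734, 83618, 73222 and 63210.4 TPM, highest in replicate 2 and lowest in replicate 4. RPS12 (4213 ± 481 TPM), RPS2 (3442 ± 317 TPM) and RPL8 (2811 ± 341 TPM) led the list. RPS9 (1.96 ± 0.337 TPM) and RPS18 (0.265 ± 0.149 TPM) stood far below the list median of 667 TPM. Their words lay on alternate contigs for 97.7% and 100%, so that these levels are uncertain.

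The list of cytoskeleton and actin-binding genes was detected in 33 of 34 cases and summed to 93680.3 ± 10306 TPM (9.37% of the total). It also holds the lectin LGALS1 and calcium-binding S100 proteins, so that its sum is not that of cytoskeletal proteins alone. Besides TMSB10, LGALS1, VIM, S100A6 and the actins, the list was led by S100A10 (4312 ± 545 TPM), TMSB4X (4098 ± 359.8 TPM), S100A11 (2802 ± 313 TPM), the actin-monomer binder PFN1 (2801 ± 309.5 TPM) and S100A4 (2772 ± 492 TPM). The tubulin gene TUBA1B had 1219, 2409, 2238 and 2594 TPM in replicates 1 to 4. Replicate 1 was the lowest for TUBA1B, and the other replicates did not come near it. TUBB, which encodes a β-tubulin, had 0.165 ± 0.0817 TPM, with 100% of its words also on alternate contigs.

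All 5 MSC identity markers were detected. FN1, which encodes the matrix glycoprotein fibronectin (chr2:215360440-215436073, minus strand), had 3289, 1790.3, 2939 and 3071 TPM in replicates 1 to 4. Replicate 2 was the lowest for FN1 and the other 3 lay close together. THY1 (CD90, a membrane-anchored surface glycoprotein, on chromosome 11) had 803, 561, 522 and 589 TPM and was highest in replicate 1. ENG (CD105, a TGF-β co-receptor, on chromosome 9) had 617, 543, 525 and 635 TPM. NT5E (CD73, an enzyme that makes adenosine outside the cell, on chromosome 6) had 471, 433, 586 and 642 TPM. CD44, the hyaluronan receptor on chromosome 11, had 357, 374, 410.0 and 473 TPM. The lowest single value among these 5 genes was thus the CD44 level of replicate 1. THY1, ENG and NT5E overlapped between genes when all replicates were taken, so that no order among these 3 is given.

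The wider list of MSC surface markers was detected in 16 of 18 cases, beside 55.5% of all protein-coding genes, with a median member level of 304 TPM. CD248 (endosialin, a stromal cell glycoprotein; chr11:66314494-66317044, minus strand) was the highest with 3009, 2191, 1960.1 and 2066 TPM in replicates 1 to 4. Replicate 1 had the highest CD248 level. The peptidase ANPEP (CD13) had 728 ± 90.5 TPM, the tetraspanins CD151 and CD81 had 594 ± 36.5 and 408 ± 77.9 TPM, and the integrin subunit ITGB1 (CD29) had 501 ± 74.3 TPM. ALCAM (CD166) had 205 ± 46.99 TPM, and the PDGF receptors PDGFRB and PDGFRA, which bind platelet-derived growth factors, had 200.1 ± 35.4 and 194 ± 32.6 TPM. At the low end stood VCAM1 (3.57 ± 1.87 TPM), LEPR (3.04 ± 0.648 TPM), MCAM (1.09 ± 0.367 TPM) and NGFR (0.157 ± 0.0345 TPM), which have been used to mark MSCs of bone marrow and perivascular niches.

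The 7 blood and immune cell markers that MSCs should lack summed to 13.8, 8.12, 7.81 and 7.59 TPM in replicates 1 to 4, with a median member level of 0.0944 TPM. Only CD34 and CD14 were detected among them. CD34, a sialomucin of blood and vascular progenitors that freshly isolated adipose stromal cells can also carry, had 8.03, 3.46, 3.92 and 3.45 TPM and was highest in replicate 1. CD14, the lipopolysaccharide co-receptor of monocytes, had 4.98, 4.06, 3.12 and 3.51 TPM. The B cell gene CD79A had 0.544 ± 0.0954 TPM, and the integrin subunit ITGAM of myeloid cells had 6 counts in the 4 libraries together. PTPRC (CD45) had 0.0944 ± 0.0244 TPM with 58.8% of its words on alternate contigs. HLA-DRA had no count, but 100% of its words lie on alternate contigs, so that its level is uncertain. In bulk RNA, fewer cells of a type and less RNA per cell cannot be told apart.

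**Figure D2:**
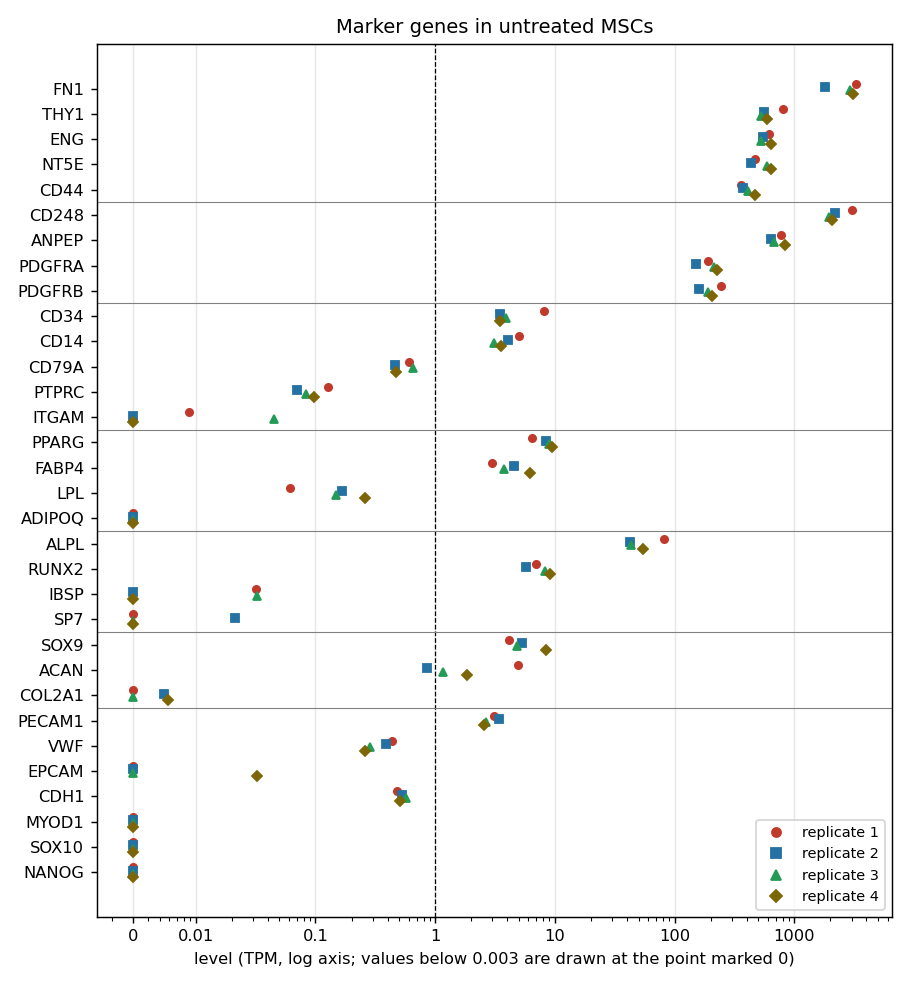
Levels of MSC identity and surface markers, of markers MSCs should lack and of lineage markers in the 4 untreated libraries. The axis gives TPM on a log scale, each point is 1 replicate, values under 0.003 TPM are drawn at the point marked 0, and the dashed line is the detection threshold of 1 TPM. FN1, THY1, ENG, NT5E and CD44 lie between 357 and 3289 TPM, and CD34 and CD14 lie between 3.12 and 8.03 TPM.

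Markers of other cell types were at low levels, with single members that stood apart from their lists. The haematopoietic list reached 1 TPM in 1 of 10 cases (CD14) and summed to 4.01 to 5.96 TPM in the 4 libraries. AIF1 and CD3E had no count, and 100% of the words of AIF1 lie on alternate contigs. The endothelial list was detected in 3 of 10 cases and summed to 60.4, 35.5, 44.95 and 39.98 TPM in replicates 1 to 4, of which TEK, the angiopoietin receptor, gave 52.8, 28.4, 39.3 and 33.7 TPM. PECAM1 (2.93 ± 0.396 TPM) and CDH5 (1.54 ± 0.296 TPM), adhesion proteins of endothelial junctions, were near the threshold of 1 TPM, and VWF (0.344 ± 0.0831 TPM) and KDR (0.01403 ± 0.0142 TPM) were under it. The epithelial list was detected in 1 of 8 cases, and its sum of 89.0 to 128 TPM was made up almost wholly of KRT14, a keratin of basal epithelium, with 96.01, 126, 98.2 and 86.8 TPM. Its usual partner KRT5 had no count, CDH1 had 0.521 ± 0.0397 TPM and EPCAM 0.008101 ± 0.0162 TPM. Of the words of KRT14, 42.2% occur more than once on the primary chromosomes, so that its reads can be exchanged with similar keratin sequences.

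In each of the fat, bone and cartilage lists fewer members were detected than not, beside 55.5% of all protein-coding genes. Of the adipocyte list 7 of 17 were detected, with a median member level of 0.281 TPM. CEBPB (182 ± 30.9 TPM) and CEBPD (158 ± 38.6 TPM), transcription factors of early adipogenesis, the lipid droplet protein PLIN2 (78.3 ± 4.49 TPM) and the precursor factors EBF2 (22.6 ± 4.91 TPM) and EBF1 (20.6 ± 3.54 TPM) led the list. PPARG, the main regulator of fat cell differentiation, had 6.47, 8.48, 8.99 and 9.48 TPM in replicates 1 to 4, lowest in replicate 1. FABP4, a fatty acid carrier of fat cells, had 2.98, 4.54, 3.75 and 6.24 TPM. LEP had 2 counts in the 4 libraries together, and ADIPOQ and UCP1, genes of mature white and brown fat cells, had none. CEBPA (0.281 ± 0.281 TPM), LPL (0.158 ± 0.0805 TPM) and PLIN1 (0.0815 ± 0.0371 TPM) stayed under the threshold of 1 TPM.

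The osteoblast list was detected in 3 of 11 cases, with a median member level of 0.104 TPM. ALPL, the alkaline phosphatase of mineralizing cells, had 81.2, 42.3, 42.98 and 53.9 TPM in replicates 1 to 4 and was highest in replicate 1. RUNX2, a transcription factor of bone formation, had 7.52 ± 1.47 TPM. BGLAP (0.278 ± 0.0449 TPM), SPP1 (0.104 ± 0.03099 TPM) and SP7 (0.00534 ± 0.0107 TPM), genes of later osteoblasts, did not reach 1 TPM. The chondrocyte list was detected in 2 of 10 cases, SOX9, the cartilage transcription factor, and MATN3, a matrix protein of cartilage, with 5.68 ± 1.92 and 2.05 ± 0.3998 TPM. ACAN, the large proteoglycan of cartilage, had 4.93, 0.852, 1.15 and 1.83 TPM in replicates 1 to 4, highest in replicate 1 and under 1 TPM in replicate 2. COL2A1, the main cartilage collagen, had 0.00283 ± 0.00328 TPM.

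The smooth muscle and pericyte list was detected in 8 of 10 cases, beside 55.5% of all protein-coding genes. It summed to 1093, 793, 686 and 645 TPM in replicates 1 to 4. Replicate 1 was the highest. TAGLN, an actin-binding protein of contractile cells, gave most of it with 848, 601, 497 and 442 TPM. ACTA2, smooth muscle actin, had 78.9, 51.5, 45.4 and 39.6 TPM, and LMOD1, an actin nucleator, had 41.5 ± 13.5 TPM. MYOCD, the coactivator of the mature smooth muscle program, had 0.00792 ± 0.007097 TPM. MYH11 had no count, with 100% of its words on alternate contigs. No member of the skeletal muscle list was detected, with no count for PAX7, MYOD1, MYF5 and MYOG. The neural list was detected in 4 of 8 cases, close to the 55.5% of protein-coding genes, and was led by the intermediate filament NES (21.2 ± 3.65 TPM). No member of the pluripotency list was detected. LIN28A and NANOG had no count, where 16.8% of the words of NANOG lie on alternate contigs.

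The matrix genes were among the highest nuclear transcripts and set replicate 1 apart from the other 3. Collagens were detected in 24 of 44 cases, close to the 55.5% of protein-coding genes, and summed to 20502, 11061, 12536 and 13064 TPM in replicates 1 to 4. The sum in replicate 1 was the highest, and the other replicates lay close together. COL1A1 (chr17:50184101-50201632, minus strand), the α1 chain of type I collagen, had 4962, 2134, 2300.1 and 2219 TPM. COL1A2, its partner chain, had 3337, 1765, 2020.3 and 2092 TPM and COL3A1, of the fibrils of soft tissue, had 3911, 2025, 2415 and 2407 TPM. All of these fibrillar chains were highest in replicate 1. COL6A2 (3224, 2302, 2384 and 2586 TPM) and COL6A1 (2967, 1782, 2012 and 2206 TPM), chains of the microfibrillar collagen around cells, followed. COL6A3, the third chain of that collagen, had 330.0 ± 59.3 TPM. COL5A2 (270.0 ± 73.2 TPM), COL5A1 (259.9 ± 99.7 TPM), COL8A1 (164 ± 46.4 TPM) and COL12A1 (134 ± 55.7 TPM) came next. The basement membrane chains COL4A2 and COL4A1 had 76.7 ± 25.5 and 60.3 ± 22.8 TPM. COL9A1, COL22A1 and COL6A5 had no count, and neither had COL11A2, of which 100% of the words lie on alternate contigs.

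Of the detected members, replicate 1 held the highest of the 4 levels for 30 of 31 matrix glycoproteins, 21 of 24 collagens, 15 of 17 proteoglycans and 12 of 17 genes of collagen processing and crosslinking, whereas it did so for 3783 of all 13255 detected genes (28.5%). Matrix glycoproteins summed to 16523, 9039, 11325 and 10955 TPM in replicates 1 to 4. After FN1 the list was led by SPARC, a collagen-binding protein (1599 ± 373 TPM), by the fibulin EFEMP1 (1109 ± 335 TPM) and by TGFBI, a TGF-β-induced adhesion protein (977 ± 195 TPM). THBS1, thrombospondin-1, had 1649, 489, 682 and 777 TPM, and POSTN, periostin, had 829, 376, 545 and 388 TPM. Both were highest in replicate 1. MFAP4, a microfibril-associated protein, had 542, 164, 186 and 150.2 TPM and showed the widest relative range of these. TNXB had 0.175 ± 0.137 TPM with 100% of its words on alternate contigs.

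Proteoglycans summed to 4551, 2670.2, 2958 and 2755 TPM in replicates 1 to 4. SRGN, serglycin, was the highest and varied little, with 1126, 1006, 1128 and 1059 TPM. LUM, lumican, had 731, 228, 303 and 247 TPM, DCN, decorin, had 506, 216, 232 and 166 TPM and BGN, biglycan, had 603, 255, 243 and 234 TPM. These small leucine-rich proteoglycans bind collagen fibrils, and all 3 were highest in replicate 1. SDC4, a membrane heparan sulfate proteoglycan, had 339, 345, 324 and 327 TPM and showed no such excess. The coefficient of variation (CV, SD over mean of TMM-scaled CPM, counts relative to the library total) was at least 50% for 9 of 18 tested proteoglycans, 8 of 34 matrix glycoproteins and 5 of 34 collagens, and for 448 of 16335 genes overall (2.74%).

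Enzymes that process collagen were detected in 17 of 18 cases. The procollagen protease enhancer PCOLCE had 1118 ± 216 TPM and the crosslinking oxidases LOX and LOXL1 had 1092 ± 406 and 899 ± 46.7 TPM. LOX stood at 1652, 681, 1002 and 1033 TPM in replicates 1 to 4, whereas LOXL1 stood at 952, 849, 874 and 923 TPM. LOX was thus far more variable than LOXL1. Matrix proteases and their inhibitors were detected in 18 of 21 cases and summed to 10506, 7615, 7741 and 7963 TPM. The inhibitor TIMP1 led this list with 3633, 2374, 2078 and 1613 TPM. The gelatinase MMP2 had 863 ± 185 TPM, its inhibitor TIMP2 759 ± 158 TPM and its membrane activator MMP14 479 ± 65.1 TPM. MMP1, interstitial collagenase, had 35.7 ± 1.805 TPM, MMP3 11.6 ± 4.86 TPM and MMP9 0.0325 ± 0.0414 TPM, and MMP13 had no count.

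**Figure D3:**
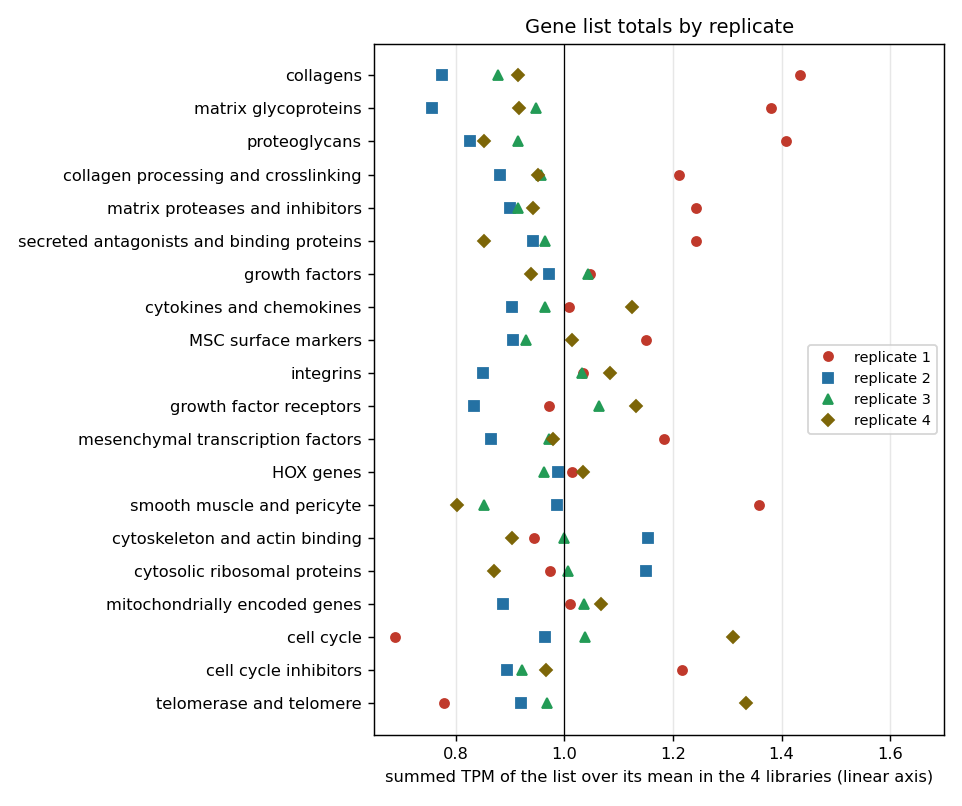
Summed level of each gene list in each untreated library divided by the mean of the 4 libraries. The horizontal axis is this ratio, each point is 1 replicate and 1 marks the mean. Replicate 1 lies to the right for collagens, matrix glycoproteins and proteoglycans and to the left for cell cycle genes, and the points of the HOX genes lie close together.

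The same order was looked for among the same-numbered cultures that received GDF11 without MmC, as values only. There the collagens summed to 15097, 13916, 11523 and 12452 TPM in replicates 1 to 4, the matrix glycoproteins to 14610.5, 9850.0, 9881 and 11143 TPM and the proteoglycans to 4603, 3163, 2999 and 2774 TPM. Replicate 1 was the highest in each of these, by a smaller margin for the collagens. In replicate 2 of these GDF11 cultures the mitochondrially encoded genes summed to 58961.5 TPM, beside 109002, 110943 and 109882 TPM in replicates 1, 3 and 4. A lower mitochondrial sum raises all other TPM of that library by construction. The study names batch effects among its limitations without saying which libraries they touch, and their part in the values of replicate 1 was not tested.

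The secreted regulators were led by binding proteins and antagonists, which were detected in 17 of 23 cases and summed to 11881 ± 2009 TPM. PTX3, a soluble pattern-recognition protein, had 4267, 2746, 3235 and 3238 TPM in replicates 1 to 4. The IGF-binding proteins IGFBP6 (2680.3 ± 632 TPM), IGFBP4 (2309.7 ± 541 TPM) and IGFBP3 (1206 ± 135 TPM) and the follistatin-like FSTL1 (1053 ± 237 TPM) followed. IGFBP7 had 487 ± 187 TPM, and IGFBP5 had 268, 99.02, 128 and 81.9 TPM, highest in replicate 1. DKK1, a Wnt antagonist, had 195 ± 24.1 TPM, and FST and FSTL3, which bind activins and GDF11, had 116 ± 24.5 and 63.6 ± 11.3 TPM. GREM1, a BMP antagonist, had 0.384 ± 0.127 TPM with 99.3% of its words on alternate contigs. IGFBP2 had 0.0179 ± 0.0187 TPM.

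Growth factors were detected in 34 of 40 cases, beside 55.5% of protein-coding genes, with a median member level of 23.05 TPM. Their sum varied little between libraries (2775, 2577, 2765 and 2490.0 TPM), but single members varied more. The median CV of the 35 tested members was 22.9%, beside 15.2% over all 16335 tested genes. Of the 34 detected members, 14 were highest and 11 lowest in replicate 1. The matricellular CCN1 and CCN2 had 671 ± 149.7 and 272 ± 82.6 TPM. TGFB1 had 259 ± 19.8 TPM, VEGFB 259 ± 24.4 TPM, ANGPTL2 223 ± 57.1 TPM, CSF1 119.8 ± 20.3 TPM and VEGFC 106 ± 11.6 TPM. The angiogenic factors FGF2 and VEGFA had 61.8 ± 14.4 and 46.1 ± 9.57 TPM, and HGF had 25.1 ± 5.66 TPM. GDF11 itself, the cytokine used in the treated groups, was expressed at 8.23, 7.46, 8.42 and 9.18 TPM in replicates 1 to 4. These levels of GDF11 lay under the median of detected protein-coding genes in every replicate. IGF1 had 71 counts over the 4 libraries. IGF2 had no count, and part of its exons overlap another gene on the same strand, so that its level is uncertain.

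Cytokines and chemokines were detected in 15 of 22 cases, with a median member level of 3.87 TPM. CXCL12, which retains blood progenitors, was by far the highest with 487, 364, 406 and 480.5 TPM in replicates 1 to 4. CCL2, a monocyte attractant, had 105 ± 12.04 TPM, and the neutrophil attractants CXCL1 and CXCL8 had 53.5 ± 13.3 and 29.1 ± 6.697 TPM. IL6 had 5.54, 2.44, 2.66 and 3.52 TPM, IL1B 5.78 ± 0.506 TPM and LIF 4.99 ± 0.803 TPM. These inflammatory cytokines were therefore low beside CXCL12. TNF and MIF had no count and CCL5 had 0.00722 ± 0.0144 TPM, and all 3 have 100% of their words on alternate contigs, so that they are uncertain.

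Receptors for growth factors were detected in 25 of 32 cases. AXL, a receptor tyrosine kinase, led with 513, 585, 625 and 639.8 TPM in replicates 1 to 4. The TGF-β type II receptor TGFBR2 had 175, 186, 249 and 263 TPM and was higher in replicates 3 and 4 than in replicates 1 and 2. The co-receptor IL6ST had 154 ± 31.3 TPM, OSMR 127 ± 28.2 TPM, the collagen receptor DDR2 101 ± 26.7 TPM, MET 57.1 ± 20.2 TPM, FGFR1 50.4 ± 4.52 TPM and EGFR 46.4 ± 11.02 TPM. FGFR2 had 1 count and KIT had 0.784 ± 0.195 TPM. DDR1 had 0.00447 ± 0.00333 TPM with 100% of its words on alternate contigs.

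Integrins, which attach cells to the matrix, were detected in 15 of 26 cases, also close to the 55.5% of all protein-coding genes. After ITGB1, the common β subunit, came the fibronectin receptor subunit ITGA5 with 257, 283, 295 and 306 TPM in replicates 1 to 4, ITGB5 with 156 ± 11.1 TPM and the laminin-binding ITGA3 and ITGA7 with 105 ± 19.3 and 74.6 ± 14.9 TPM. ITGA11, a collagen-binding subunit, had 62.7, 20.2, 26.7 and 22.7 TPM. Replicate 1 stood apart for ITGA11, as it did for the fibrillar collagens, whereas the ITGA5 levels were close together.

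Mesenchymal transcription factors were detected in 20 of 24 cases with a median member level of 34.2 TPM. TWIST2 had 622, 399, 382 and 341 TPM in replicates 1 to 4 and was the highest. PRRX1, a limb and stroma homeobox gene, had 132.1 ± 23.9 TPM, KLF4 122 ± 17.9 TPM, SIX2 109 ± 6.67 TPM and SNAI2 108 ± 15.9 TPM. ZEB1 (67.1 ± 19.6 TPM) and TWIST1 (41.3 ± 6.22 TPM), which with SNAI2 repress epithelial genes, were lower. TCF21 (0.04403 ± 0.0266 TPM) and MEOX1 (0.0262 ± 0.0356 TPM) did not reach 1 TPM, although the related MEOX2 had 79.3 ± 24.4 TPM.

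The HOX genes, homeobox genes whose position in their clusters follows the body axis, were detected in 26 of 39 cases and had the sum that varied least of the 31 lists. This sum was 617, 602, 585 and 630.0 TPM in replicates 1 to 4, a CV of 3.17%. Single HOX genes varied more than their sum: the median CV of the 30 tested members was 13.7%, near the 15.2% over all tested genes. HOXC10 (chr12:53985065-53990279, plus strand) was the highest with 129, 128, 122 and 119.6 TPM. HOXC8 (75.9 ± 7.69 TPM), HOXB7 (68.7 ± 9.01 TPM), HOXC6 (48.7 ± 4.48 TPM), HOXC9 (46.5 ± 1.55 TPM) and HOXB2 (39.6 ± 5.796 TPM) followed. The C cluster gave 4 of the 5 highest levels. In the A cluster HOXA10, HOXA11 and HOXA9 had 26.3 ± 3.099, 15.6 ± 2.44 and 11.4 ± 1.73 TPM, whereas HOXA5 had 0.8803 ± 0.3105 TPM and HOXA7 and HOXA4 had 15 and 1 counts over the 4 libraries. HOXC12 (2 counts) and HOXC13 (5 counts), next to HOXC11 with 9.58 ± 0.5101 TPM, ended the C cluster. Of the D cluster, HOXD4 and HOXD8 were the highest with 13.8 ± 1.39 and 12.3 ± 1.04 TPM. Antisense genes overlap parts of several HOX genes, and the strand setting of the counting is not given in the sources used here, so that these levels may hold reads of the partner.

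**Figure D4:**
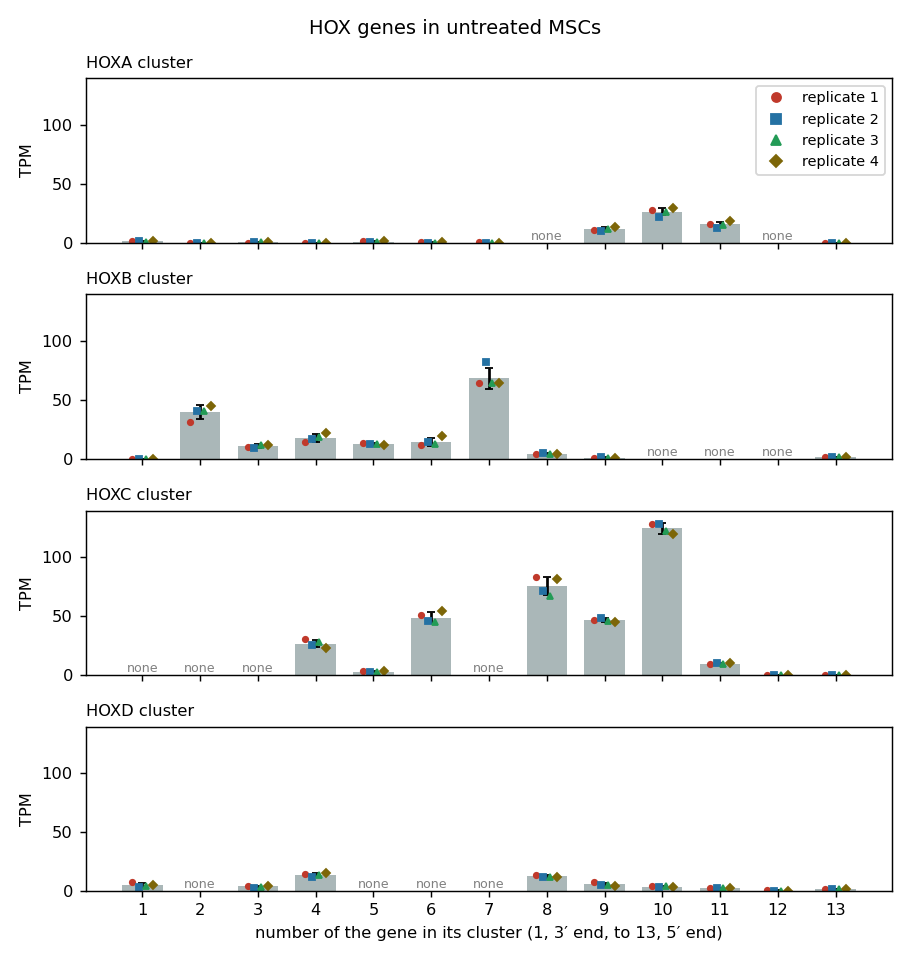
Levels of the 39 HOX genes in the 4 untreated libraries by cluster. The horizontal axis is the number of the gene in its cluster, the vertical axis gives the level in TPM from 0, bars are means, error bars are SDs and each point is 1 replicate. HOXC10 is the highest at 119.6 to 128.9 TPM, and the D cluster stays under 20 TPM.

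Genes of the cell cycle were detected in 24 of 25 cases and summed to 1412, 1978, 2131 and 2688 TPM in replicates 1 to 4. Replicate 1 was lowest and replicate 4 highest. Replicate 1 held the lowest of the 4 levels for 20 of the 24 detected members, whereas it did so for 4009 of all 13255 detected genes (30.2%). PCNA, the DNA polymerase clamp, had 236, 306, 330.2 and 415 TPM, CCNB1, the mitotic cyclin, had 113, 231, 228 and 286 TPM and TOP2A, which unties replicated DNA, had 78.95, 95.1, 131 and 170.2 TPM. All of these were lowest in replicate 1. CCND1, a cyclin of the first gap phase, had 233, 209, 251 and 279.7 TPM. In the same-numbered cultures with GDF11 alone the cell cycle list summed to 1978, 2107, 1794 and 2513 TPM, where replicate 3 and not replicate 1 was the lowest.

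Among the inhibitors of the cell cycle, CDKN1A, the p53 target p21, had 427, 246, 238 and 247 TPM in replicates 1 to 4 and was highest in replicate 1. CDKN2C had 104 ± 9.93 TPM, CDKN2B 21.3 ± 3.44 TPM and CDKN2A, which encodes p16 and ARF, 0.903 ± 0.266 TPM. With the length of the longest transcript the CDKN2A level was 2.40 TPM, above the threshold. CDKN1C had 0.0493 ± 0.0892 TPM with 92.3% of its words on alternate contigs. TERT, the catalytic subunit of telomerase (chr5:1253147-1295068, minus strand), had 559, 580.2, 725 and 1227 TPM, which placed it at rank 163 of all genes by mean level. Replicate 4 held the highest TERT level. Counts of TERT cannot be divided here between the introduced copy and the chromosomal gene, and the TPM used the exon length of the chromosomal gene. The other telomerase and telomere genes, such as NHP2 (288 ± 49.3 TPM), DKC1 (27.7 ± 4.84 TPM), TERF2 (19.8 ± 1.96 TPM) and POT1 (10.2 ± 0.701 TPM), lay between 5.52 and 288 TPM on average.

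Over all genes the replicates were similar. Pearson's r of log2 CPM, with 2 CPM added, was 0.987 to 0.997 for the 6 pairs of libraries. This is a description across the 16335 genes kept by the expression filter, which are not independent. The biological coefficient of variation (square root of the edgeR common dispersion) was 0.194. The median chi-square per gene between pairs of libraries was 11.1 to 47.4, more than counting error alone gives, and no library was treated as a deposit of another. Replicate 1 differed most by the number of genes at least 2-fold apart after 2 CPM was added to each level. This number was 249 against replicate 2, 160 against replicate 3 and 356 against replicate 4, and 17 to 35 among the other 3. The added CPM shrink ratios at low levels, so that 2-fold differences of weakly expressed genes are undercounted. No CPM were added for the 1.5-fold counts. A level at least 1.5-fold above each of the other 3 libraries was found in replicate 1 for 918 genes (5.62%) and at least 1.5-fold below for 556 (3.40%). In replicates 2, 3 and 4 the shares were 0.416, 0.447 and 0.912% above and 1.86, 0.459 and 1.54% below. Without replicate 1 the biological coefficient of variation was 0.151, and the number of genes with a CV of at least 50% was 150 in place of 448.

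**Figure D5:**
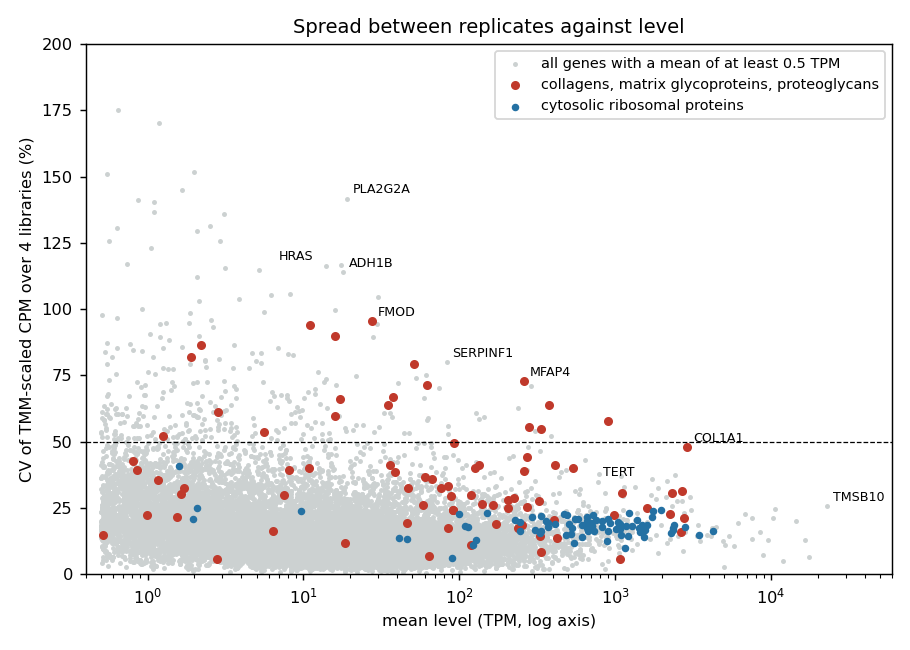
Coefficient of variation over the 4 untreated libraries against mean level for genes with a mean of at least 0.5 TPM. The horizontal axis gives mean TPM on a log scale, the vertical axis the CV in percent of TMM-scaled CPM, and each point is a gene, with matrix genes in red, ribosomal protein genes in blue and a dashed line at 50%. The median CV of genes with a mean of at least 10 TPM is 12.1%, and PLA2G2A and HRAS lie among the most variable.

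The 10 protein-coding genes with the highest CV, among 7849 with a mean of at least 10 TPM, had a CV of 76.4% or more, beside a median of 12.1%, and the 11th stood at 75.1%. PLA2G2A, a secreted phospholipase (chr1:19975431-19980416, minus strand), had 59.5, 7.14, 6.07 and 3.47 TPM in replicates 1 to 4 (CV 142%). ADH1B, an alcohol dehydrogenase, had 48.6, 9.05, 11.1 and 3.51 TPM and RDH10, a retinol dehydrogenase, had 70.7, 12.1, 15.4 and 19.96 TPM. In all of these replicate 1 was the highest, as it was for 28.5% of all detected genes. The genes were chosen for their spread over these same libraries, so that a library far from the others is partly a result of their choice. The proteoglycan genes FMOD (67.01, 13.4, 14.9 and 15.5 TPM), PRELP (26.6, 6.78, 6.16 and 4.76 TPM) and ASPN (110.0, 31.8, 40.2 and 21.7 TPM), the fibulin gene FBLN2 (36.95, 8.40, 10.1 and 7.89 TPM), SERPINF1, which encodes the antiangiogenic factor PEDF (182, 54.7, 55.4 and 41.0 TPM), and the adhesion receptor gene ADGRD1 (26.3, 7.503, 9.23 and 6.41 TPM) showed the same order, replicate 1 first. HRAS was the exception, with 20.03, 0.610, 34.4 and 0.907 TPM. It was high in replicates 1 and 3 and near 1 TPM or lower in replicates 2 and 4, and 100% of its words lie on alternate contigs. In the same-numbered cultures with GDF11 alone PLA2G2A had 44.4, 5.06, 6.65 and 3.51 TPM and HRAS had 0.513, 0.608, 0.5299 and 0.543 TPM.

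Genes set apart in the other libraries differed less. Among protein-coding genes with a mean of at least 10 TPM, the gene of replicate 4 with the highest ratio to the next library was TMEM158, a membrane protein gene, with 85.4, 101, 109 and 219 TPM in replicates 1 to 4. The neutrophil attractant CXCL5 (10.8, 11.4, 12.4 and 23.5 TPM), the protease inhibitor TFPI2 (82.3, 78.2, 86.6 and 147 TPM), TERT and the EGF family ligand EREG (6.16, 7.67, 11.8 and 19.7 TPM) completed its first 5. Among the same genes the first in replicate 2 was RPS3A, with a ratio of 1.43, a ribosomal protein gene (1850.3, 2499, 1906 and 1663 TPM), of whose words 37.9% occur more than once on the primary chromosomes. In replicate 3, after HRAS, it was SAMD9, an interferon-responsive gene (51.5, 43.8, 76.5 and 60.9 TPM).

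At the stable end, the 10 protein-coding genes with the lowest CV stood at 1.08% or less on the scale of TMM-scaled CPM, the lowest of 7849 values and thus partly a result of their choice. C14orf132 (CV 0.558%), TMEM243, TFG, AHCYL1, PLPP5, ATXN7L3B, CDK2AP1, AJUBA, EEF1AKMT2 and HERPUD2 made up this set. TFG, a protein of vesicle traffic from the endoplasmic reticulum, had 42.9, 40.8, 44.7 and 46.4 TPM in replicates 1 to 4, and AHCYL1, a regulator of calcium release, had 101, 92.9, 102 and 108 TPM. In TPM, which TMM does not rescale, the replicates of these genes lay further apart. The commonly used reference transcripts GAPDH and ACTB had a CV of 24.4% and 14.2% on the scale of TMM-scaled CPM.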

How the data were processed

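Poly(A) RNA of the cultures was made into strand-specific libraries and sequenced on an Illumina NovaSeq instrument. HISAT2 2.2.1 was the aligner (hg38) and featureCounts 2.0.1 the counter, on GENCODE V38 genes, so that the values deposited by the authors are raw counts per gene. The settings for read pairs, strand and multiple alignments are not given in the sources used here. All libraries were mixed before sequencing, and the study names batch effects without tying them to libraries, so no batch could be separated.

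Of 60649 genes, 186 had no match in the GENCODE v44 annotation of the same build and were left out, which removed 0.0425 to 0.0677% of counts. TPM were computed from the deposited counts and merged exon lengths. For the spread, genes were kept with filterByExpr (minimum count 10), scaled by TMM and fitted with a common dispersion in edgeR 4.0.16 (R 4.3.3), which was tested on simulated data. DESeq2 1.42.0 was used as an alternative. Overlap with alternate contigs was measured as the share of exonic 31-base words found on the 261 alternate contigs of the reference genome. Coordinates are those of hg38.

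Levels within the untreated group were described and no groups were compared. Some levels of the cultures with GDF11 alone are given beside them as values. Libraries far from the other 3 were marked by Dixon's rule, and pairs of libraries were set against counting error by a chi-square per gene. Named genes were the 20 with the highest mean TPM, members of fixed lists (the highest and those with few counts), the 10 with the highest and the 10 with the lowest CV among protein-coding genes with a mean of at least 10 TPM, and the genes most set apart in each library. The members and lists were chosen with earlier results of these data known. Alternatives were other gene lengths, mitochondrial genes left out, equal depth, other scaling and filters, and each replicate left out in turn. The levels of a few genes are not reported here.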

Additional observations from a re-analysis of the deposited data

Results flagged for a closer look

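Of 292 quantities (31 list sums, 258 genes named above and 3 properties of the libraries), 37 had a library farther from the other 3 than Dixon's 95% critical value for 4 samples allows. Chance alone flags about 1 in 20 such groups, but the genes include some chosen for their spread between libraries, so the number passing is a description and is not read against that share. The library that stood apart was replicate 1 in 25 of the 37. Genes named for their high ratio in replicate 1, such as PLA2G2A and FMOD, are among these, and list sums are counted beside their own members. This number is therefore also a description of the chosen quantities, and no share over all genes stands beside it.

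Replicate 1 was the highest for the summed markers that MSCs should lack (13.8 TPM, against 7.59 to 8.12 TPM in the others), for proteoglycans (4551 TPM, against 2670.2 to 2958 TPM) and for matrix proteases and inhibitors (10506 TPM, against 7615 to 7963 TPM). The first of these sums rests on CD34, at 8.03 TPM in replicate 1. Replicate 1 was likewise the highest for the matrix genes COL1A1 (4962 TPM), COL5A1 (409 TPM), BGN (603 TPM), LUM (731 TPM), FMOD (67.0 TPM), PRELP (26.6 TPM), MFAP4 (542 TPM), FBLN2 (37.0 TPM) and PCOLCE (1439 TPM) and for the collagen-binding integrin gene ITGA11 (62.7 TPM). It was also the highest for IGFBP7 (765 TPM), CDKN1A (427 TPM), SERPINF1 (182 TPM), RDH10 (70.7 TPM), PLA2G2A (59.5 TPM), ADH1B (48.6 TPM), ADGRD1 (26.3 TPM) and HOXD8 (13.9 TPM), and the lowest for CXCL1 (33.6 TPM).

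Replicate 4 was the highest for TFPI2 (147 TPM), ITGA7 (96.9 TPM), CXCL5 (23.5 TPM) and LIF (6.18 TPM) and the lowest for S100A10 (3504 TPM). Replicate 2 was the highest for HOXB7 (82.2 TPM) and the lowest for IL6ST (108 TPM). The remaining genes are at or near a count of 0, where 1 or a few counts set a library apart: CDKN1C (0.183 TPM) and LEP (0.0294 TPM) in replicate 1, SP7 (0.0214 TPM) in replicate 2, HOXA4 (0.0297 TPM) and FGFR2 (0.00273 TPM) in replicate 3, and EPCAM (0.0324 TPM) and CCL5 (0.0289 TPM) in replicate 4.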

How the results depend on the processing

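The number of detected genes (13255) lay between 12505 and 14799 under every alternative. Leaving out mitochondrially encoded genes raised the level of all others by construction: the sums became 8351 TPM for MSC surface markers, 2999 for growth factors, 787 for cytokines and chemokines, 2313 for growth factor receptors, 105844 for the cytoskeleton, 688 for HOX genes, 1485 for integrins and 82132 for ribosomal proteins, and the 10 most abundant genes held 10.1% of TPM in place of 13.1%. With the longest transcript as gene length these 10 held 11.0%, and the sums were 5927 TPM for MSC identity markers, 3.64 for the haematopoietic list, 2247 for growth factors, 521 for HOX genes, 1867 for integrins, 89372 for ribosomal proteins and 83088 for mitochondrially encoded genes. The other list sums moved by less than 1 SD. Without genes mostly on alternate contigs, an alternative chosen after seeing the data, no list sum moved by more than 1 SD.

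The number of genes with a CV of at least 50% was 12508 of 31629 without the filter on low counts, 446 with RLE size factors and 431 at equal depth, and it ranged from 150 without replicate 1 to 667 without replicate 3. The biological coefficient of variation (0.194) was 0.205 without the filter on low counts. With 1 replicate left out it ranged from 0.151 without replicate 1 to 0.223 without replicate 3. The square root of the median DESeq2 gene-wise dispersion, which is a different measure, was 0.134. Without replicate 1 the mean of 21 named genes moved by over 1.5-fold. Examples are PLA2G2A (5.56 in place of 19.1 TPM), ADH1B (7.89 in place of 18.1 TPM) and MFAP4 (167 in place of 261 TPM). Some of the 21 were named for their spread between libraries, which raises this number. Others had few counts, such as CDKN1C (0.0493 TPM with all replicates) and LEP (0.00735 TPM). Without replicate 3 HRAS had 7.18 in place of 14.0 TPM. The limits of these data are the 4 libraries of 1 line, gene lengths from merged exons that need not be the transcripts expressed, reads shared with alternate contigs or pseudogenes, an unstated strand setting, and batch effects that the study names without tying them to libraries. No paired analysis was possible because no groups were compared.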
